A study of Mus musculus with 8 samples.

Results

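The genes described here are 10 members of the BCL2 family, the group of proteins that sets whether a cell commits to apoptosis at its mitochondria. They are listed by name and role, with earlier results of these data known, and are 10 of the 24460 genes counted in these libraries. Of these, 5 are BH3-only genes (Bmf, Bbc3, Pmaip1, Bcl2l11 and Bid), 2 encode effectors (Bax and Bak1) and 3 encode anti-apoptotic proteins (Bcl2, Bcl2l1 and Mcl1). RNA-Seq was done on wild type mouse embryonic fibroblasts (MEFs) kept in medium with RHPS4, a G-quadruplex (G4) ligand, at 0 µM (3 libraries), 2 µM (3 libraries) or 10 µM (2 libraries). The exposure was 16 or 24 h and the labels do not say which applies to these libraries, nor whether the 0 µM cells received a vehicle or whether replicates came from separate cultures. The p-values therefore measure the spread between these libraries, which may be technical. A level is given as CPM, the count of a gene scaled to a common library size after TMM adjustment.

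The proteins of this family act on the outer mitochondrial membrane. The effectors BAX and BAK open pores in it and release cytochrome c, which starts the caspase cascade. The anti-apoptotic members BCL2, BCL-XL (the product of Bcl2l1) and MCL1 hold effectors and BH3-only proteins in check, and BH3-only proteins, which respond to different kinds of stress, bind them or the effectors and tip the balance. In fibroblasts the family is known for setting the response to DNA damage, loss of attachment, loss of growth factors and stress of the endoplasmic reticulum. Much of this control acts on the proteins (MCL1 turns over fast, and BID is activated by cleavage), which RNA does not show.

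The members lie on 7 chromosomes, and their positions are given on GRCm38, the assembly that mm10 names. Among the BH3-only genes, Bmf is on chromosome 2 from 118528757 to 118549687, Bcl2l11 on chromosome 2 from 128126038 to 128162547, Bbc3 on chromosome 7 from 16308393 to 16318205 and Bid on chromosome 6 from 120891930 to 120916853. Pmaip1 is on chromosome 18. The effector genes are on chromosome 7 from 45461697 to 45466898 (Bax) and on chromosome 17 from 27019810 to 27029009 (Bak1). The anti-apoptotic genes are on chromosome 1 from 106538178 to 106714274 (Bcl2), on chromosome 2 from 152780668 to 152831728 (Bcl2l1) and on chromosome 3 from 95658788 to 95663176 (Mcl1). Bid shares 17.7% of its exonic bases with Bcl2l13 on the opposite strand, and Bak1 shares 7.4% and 18.2% with the 2 annotated entries of Ggnbp1, also opposite. The sources used here do not say whether counting used the strand, so reads in these stretches could belong to either gene. Bax shares 12.2% with Gm45808 on the same strand and Bcl2 shares 6.1% with the antisense gene D630008O14Rik, neither of which was counted in the files.

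RefSeq promoter windows on GRCm38.p6, 250 bases before a transcription start and 50 after it, are given for 9 members, in 16 windows. Pmaip1 was left out of this search. They are of interest because RHPS4 binds G4 and because the regulators of BH3-only genes bind known motifs. The G4 motif was 4 runs of at least 3 G on either strand with 1 to 7 bases between runs. It was in 3 of the 16 windows, from 2 members (Bbc3 and Bcl2), a share near the 18.6% of all 32851 windows that held it. The 2 Bbc3 windows with this motif overlap and share the match. The forkhead motif TGTTTAC, on either strand, was in 2 windows (of Bbc3 and of Bcl2l11), against 3.65% of all windows. The C/EBP-ATF motif TGATGNAA was in none (3.97% of all windows), and neither was the p53 response element without a spacer (0.00913%). That strict p53 element was in only 3 of all 32851 windows, so its absence from 16 windows says nothing about the members. These are matches of letters and say nothing of whether a factor or a G4 is present there.

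The 250 bases before the start are printed 5′ to 3′ for 4 of these windows, with the matches in capitals. Bmf (chr2:118549687-118549936, minus strand) is shown because its mRNA changed most among the members, and none of its 3 windows had a match. Bcl2l11 (chr2:128125788-128126037, plus strand) has the forkhead motif in its reverse orientation. Bbc3 (chr7:16310011-16310260, plus strand) has the forkhead motif followed by a G4 motif on the printed strand. Bcl2 (chr1:106714291-106714540, minus strand) has G4 motifs on the strand opposite to that printed, seen here as runs of C.
Bmf: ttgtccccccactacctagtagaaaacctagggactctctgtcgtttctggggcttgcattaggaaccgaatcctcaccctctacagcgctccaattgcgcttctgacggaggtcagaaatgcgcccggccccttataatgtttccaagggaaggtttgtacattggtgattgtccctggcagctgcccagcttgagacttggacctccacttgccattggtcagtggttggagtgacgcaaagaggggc
Bcl2l11: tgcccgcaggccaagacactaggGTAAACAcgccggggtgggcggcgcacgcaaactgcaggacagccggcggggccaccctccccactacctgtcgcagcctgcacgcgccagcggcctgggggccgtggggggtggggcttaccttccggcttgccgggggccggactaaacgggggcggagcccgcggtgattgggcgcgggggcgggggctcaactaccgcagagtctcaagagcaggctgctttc
Bbc3: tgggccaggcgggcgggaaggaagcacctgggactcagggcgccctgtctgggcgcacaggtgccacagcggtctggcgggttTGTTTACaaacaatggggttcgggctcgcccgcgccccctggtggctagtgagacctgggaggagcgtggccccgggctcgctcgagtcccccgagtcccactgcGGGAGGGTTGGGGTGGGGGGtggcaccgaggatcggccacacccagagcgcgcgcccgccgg
Bcl2: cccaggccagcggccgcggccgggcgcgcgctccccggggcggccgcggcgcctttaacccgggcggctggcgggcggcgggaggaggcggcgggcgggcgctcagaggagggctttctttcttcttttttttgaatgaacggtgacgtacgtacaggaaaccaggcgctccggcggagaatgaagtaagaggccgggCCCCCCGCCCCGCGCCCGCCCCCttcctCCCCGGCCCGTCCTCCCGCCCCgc

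The libraries held 10455965 to 26688121 counts, so 3 counts, taken as the floor, corresponded to 0.112 to 0.287 CPM. A floor of this kind covers only the error of counting, because PCR can copy 1 fragment many times. No 2 libraries were copies of each other, and the first 0 µM library stood furthest from the others of its group. All 9 fibroblast markers were detected in every library, with a summed level of 12600 to 13130 CPM at 0 µM, 11330 to 11680 at 2 µM and 11010 to 11600 at 10 µM, whereas the 5 macrophage markers together had at most 11.4 CPM, the 5 epithelial markers at most 4.32 CPM and the 5 endothelial markers at most 5.68 CPM (with Cldn5 at 0 in 1 library). Of the fibroblast markers, Lum and Thy1 were low, at 0.489 to 1.39 and 5.11 to 7.79 CPM over all libraries. The macrophage marker Cd68 had 3.63 to 7.20 CPM, so the fibroblast sum rests on the other markers. Pdgfrb and Col3a1 were lower at both doses than at 0 µM at an edgeR adjusted p under 0.05. At 10 µM against 0 µM Pdgfrb also met the DEG limits described below (0.659-fold, adjusted p = 0.000248, edgeR). The share of counts from mitochondrial DNA was 13.2% to 14.4% at 0 µM, 7.40% to 8.26% at 2 µM and 5.33% to 6.32% at 10 µM. Scaling on nuclear genes only, which takes these counts out of the library sizes, left Bmf a DEG in all 3 comparisons described below (log2 fold changes of −0.70, 0.59 and 1.29), and of the members' calls at an adjusted p under 0.05 it ended that of Bak1 at 10 µM against 0 µM (edgeR adjusted p = 0.0507). Any other part of this share in the results was not tested.

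Levels of different genes were compared per kb of annotated exon, although the annotation used for counting is not given. On this scale Mcl1 was the highest member at 0 µM with 61.9 ± 7.28 CPM per kb (n = 3, SD). It was followed by Bak1 (27.0 ± 2.76), then Bax (14.3 ± 0.649) and Bcl2l1 (14.1 ± 0.910), whose libraries overlapped. Bid had 7.54 ± 0.630 CPM per kb and Bcl2l11 3.48 ± 0.326. The libraries of Bcl2 (1.76 ± 0.199) overlapped with those of Bmf (1.68 ± 0.103), and those of Bmf with those of Bbc3 (1.37 ± 0.323). Pmaip1 was last with 0.18 ± 0.0486. Among the members and per kb, most anti-apoptotic RNA was thus Mcl1 and most BH3-only RNA Bid, and the first 6 places were the same at all 3 doses. The place of Bid depends on the exonic length, 3.55 kb against 8.03 kb for Bcl2l11. Without it, Bid had 26.75 CPM at 0 µM and Bcl2l11 27.92. BH3-only genes outside the members, such as Bad (20.34 CPM at 0 µM, named after its values were seen), are not in this order. At 10 µM, Bmf (2.502 ± 0.103 CPM per kb, SD, n = 2) and Bbc3 (1.93 ± 0.487) stood above Bcl2 (1.74 ± 0.192), with the libraries of Bbc3 and Bcl2 overlapping. This order too depends on the exonic lengths, 9.16 kb for Bcl2, 5.25 kb for Bmf and 2.12 kb for Bbc3. Without them, Bcl2 was the highest of these at 10 µM with 15.95 CPM, against 13.14 for Bmf and 4.089 for Bbc3.

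**Figure D1:**
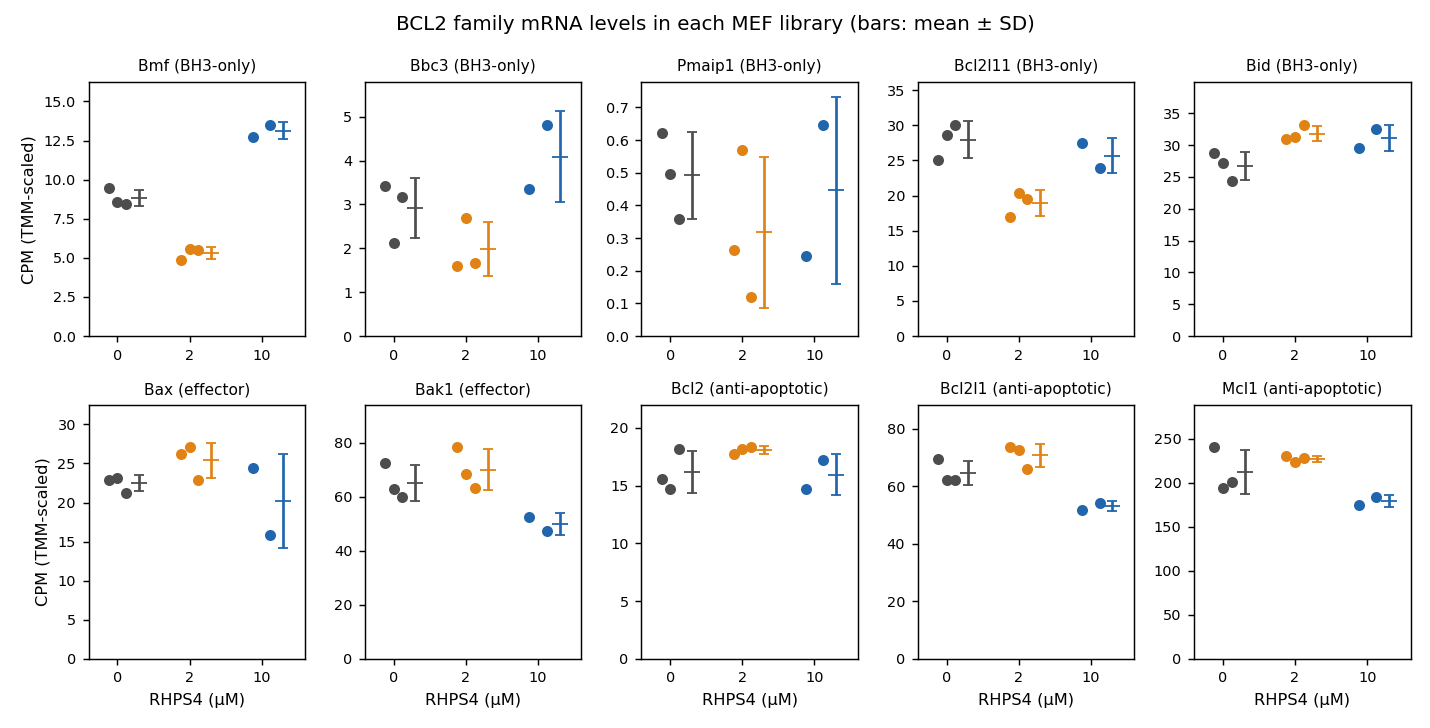
The 10 members' RNA level in each of the 8 libraries, in TMM-scaled CPM on linear axes that start at 0 and differ between panels, by RHPS4 dose in µM. Points are libraries and the bars beside them the mean ± SD (n = 3, 3 and 2). Bmf lies at 8.46 to 9.45 CPM at 0 µM, at 4.85 to 5.54 at 2 µM and at 12.8 to 13.5 at 10 µM, whereas the Pmaip1 groups overlap.

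Each comparison was tested over all 14296 genes with enough counts, which include 9 members but not Pmaip1. A differentially expressed gene (DEG) met the limits of the study, a fold change over 1.5 and an adjusted p under 0.01, here by the quasi-likelihood test of edgeR. A second, looser limit was an adjusted p under 0.05 from the same test with any fold change. All 3 comparisons share libraries, since 2 µM and 10 µM were both set against the same 0 µM libraries, so their results are not independent of each other. In such bulk RNA, fewer cells that express a gene and less RNA per cell cannot be told apart.

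The first comparison, 2 µM against 0 µM, asks what the dose at which the study examined mitochondrial function did to these genes. At 2 µM, 2 BH3-only mRNAs fell and no member rose at either limit. Bmf was the single DEG among the members, to be read against 0.497% of all tested genes (0.378% lower and 0.119% higher). At the looser limit Bmf and Bcl2l11 passed, against 4.16% of all tested genes (2.65% lower and 1.51% higher). The libraries of the 2 groups did not overlap for 3 members (Bmf, Bcl2l11 and Bid), against 25.7% of all tested genes. The median log2 fold change of the 9 tested members was 0.11, against −0.01 over all tested genes.

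The study used 10 µM beside 2 µM in its assays of nuclear DNA damage. It reported a mild nuclear DNA damage response and a mild effect on proliferation at 10 µM, and neither at 2 µM. At 10 µM against 0 µM, Bmf rose and was again the single DEG (3.09% of all tested genes were DEGs, 1.95% higher and 1.14% lower). At the looser limit 3 members passed, Bmf higher and Bak1 and Bcl2l1 lower, against 13.9% of all tested genes (6.81% higher and 7.11% lower). The groups did not overlap for 5 members (Bmf, Bid, Bak1, Bcl2l1 and Mcl1), against 42.9% of all tested genes. The median log2 fold change was −0.13, against 0.02 over all tested genes.

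Between the doses, 10 µM against 2 µM, the members differed most. Bmf was the single DEG (5.51% of all tested genes were DEGs, 3.92% higher and 1.59% lower), and 6 members passed the looser limit, against 23.4% of all tested genes (11.5% higher and 11.9% lower). Of these, 3 were BH3-only genes and were higher at 10 µM (Bmf, Bbc3 and Bcl2l11), and 3 were lower (Bak1, Bcl2l1 and Mcl1). The groups did not overlap for 7 members, against 51.8% of all tested genes. The median log2 fold change was −0.18, against 0.03 over all tested genes.

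**Figure D2:**
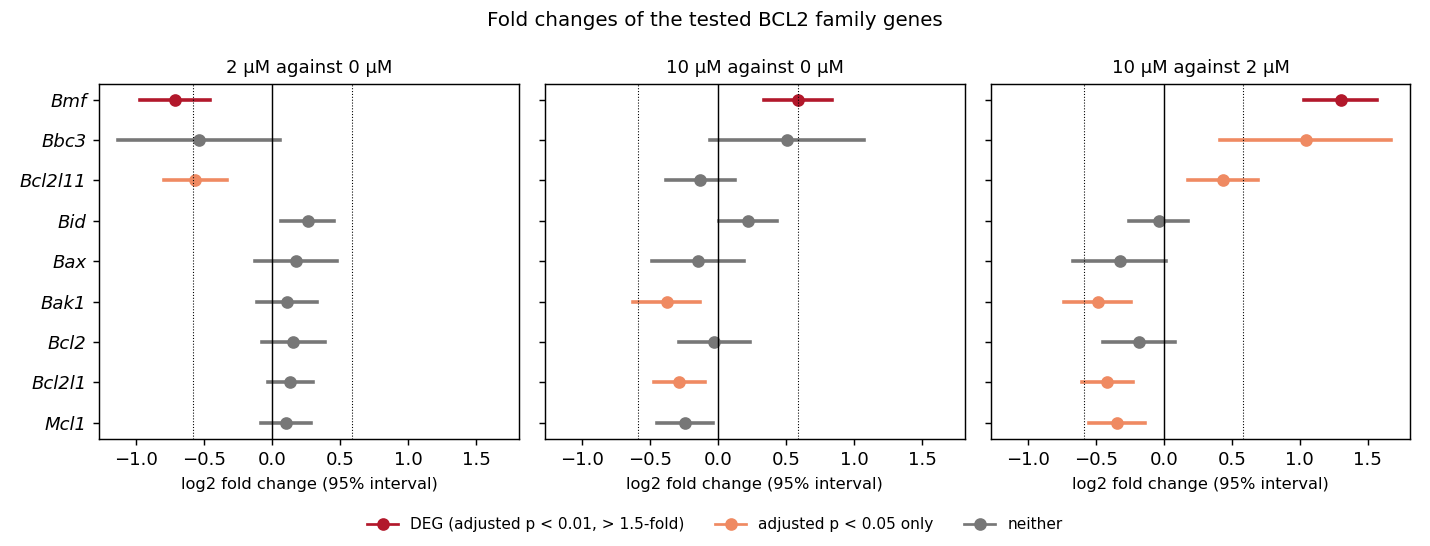
Log2 fold changes of the 9 tested members in the 3 comparisons, as points with 95% intervals from edgeR's quasi-likelihood fit (8 libraries), with dotted lines at a 1.5-fold change. Bmf is at −0.71, 0.59 and 1.30 and is the member coloured as a DEG in each panel, whereas at 10 µM against 2 µM the effector and anti-apoptotic genes lie below 0.

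The BH3-only gene Bmf encodes a protein that is bound to the dynein light chain DYNLL2 at the cytoskeleton and is known for its release when cells lose attachment. It had 9.45, 8.57 and 8.46 CPM in the 0 µM libraries, 4.85, 5.54 and 5.53 CPM at 2 µM, and 12.8 and 13.5 CPM at 10 µM. All 2 µM libraries lay below, and both 10 µM libraries above, every 0 µM library. At 2 µM the log2 fold change was −0.71 (edgeR adjusted p = 0.0093, standard error 0.117, 95% interval of the fold change 0.510 to 0.728). At 10 µM against 0 µM it was 0.59 (edgeR adjusted p = 0.00698, standard error 0.114), a 1.501-fold change that just passed the fold limit. Between the doses it was 1.30 (edgeR adjusted p = 5.05e-05, standard error 0.124), or 2.46-fold (95% interval 2.04 to 2.97).

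How firmly Bmf passed differed between these comparisons. When each of the 8 libraries was left out in turn, the 10 µM against 2 µM change remained a DEG every time. The changes against 0 µM stayed DEGs only without the first 0 µM replicate and were lost in the other 7 fits. The adjusted p then reached 0.0514 at 2 µM, when its second replicate was missing, and 0.0707 at 10 µM, again without its second replicate, while the direction held in all. At 2 µM Bmf was also no DEG with total counts only (adjusted p = 0.0119, edgeR), with only the 2 groups in the fit (0.0174) and with the replicate block (0.0255). At 10 µM against 0 µM it was no DEG with DESeq2, the tool of the study (log2 fold change 0.55, adjusted p = 0.026), with only the 2 groups in the fit (0.0202, edgeR), with the replicate block (0.0266, edgeR), and, through the fold limit, with RLE size factors (0.57) or no filter on low counts (0.54). In all, 10 of 18 alternatives ended the call at 2 µM and 12 of 18 that at 10 µM against 0 µM. The alternatives with looser thresholds, counted in the 18, reuse the main fit and could not end a call.

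The tested genes whose log2 CPM followed Bmf most closely over the 8 libraries were Gm4841, Pxylp1 and P2rx4, with Pearson's r of 0.989, 0.988 and 0.985 out of 14295 genes ranked. These are a description of 8 libraries in 3 dose groups. Gm4841 had 2.26 to 2.80 CPM at 0 µM, 1.23 to 1.49 CPM at 2 µM and 4.27 and 5.47 CPM at 10 µM. Pxylp1 differed less, with 11.2 to 11.7 CPM at 0 µM, 8.64 to 8.82 CPM at 2 µM and 14.2 and 14.5 CPM at 10 µM. P2rx4, a purinergic receptor gene, had 19.9 to 20.8 CPM, 16.9 to 17.2 CPM, and 25.1 and 25.2 CPM at these doses.

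Bcl2l11, which encodes BIM, a BH3-only protein that binds all anti-apoptotic members and is known for its induction on loss of growth factors, had 25.0, 28.6 and 30.1 CPM at 0 µM, 16.9, 20.4 and 19.6 CPM at 2 µM, and 27.4 and 24.0 CPM at 10 µM. The 2 µM libraries lay below all others, and the 0 µM and 10 µM libraries overlapped. Its log2 fold change at 2 µM was −0.57 (edgeR adjusted p = 0.0176, standard error 0.105), which passed the looser limit only. Between the doses it was 0.44 (edgeR adjusted p = 0.0207, standard error 0.117), and at 10 µM against 0 µM it was −0.13 (edgeR adjusted p = 0.492). Without the first 0 µM replicate the fall at 2 µM became a DEG (adjusted p = 0.00548, edgeR), whereas the looser limit was missed without the second or the third 0 µM or the first or second 2 µM replicate (up to 0.107). The difference between the doses missed it without the first 2 µM replicate (adjusted p = 0.0711, edgeR) or the first 10 µM replicate (0.192). Gene counts cannot separate the isoforms of BIM.

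Bbc3, which encodes PUMA, a BH3-only protein best known as a target of p53, was low, with 18 to 80 counts in a library. It had 3.43, 2.13 and 3.18 CPM at 0 µM, 1.59, 2.69 and 1.66 CPM at 2 µM, and 3.36 and 4.82 CPM at 10 µM. The 0 µM libraries overlapped with both other groups, but the 10 µM libraries lay above all 2 µM libraries. Between the doses the log2 fold change was 1.04 (edgeR adjusted p = 0.0229, standard error 0.287), with a wide 95% interval of 1.33- to 3.19-fold. Against 0 µM the values were −0.54 at 2 µM (adjusted p = 0.279, edgeR) and 0.51 at 10 µM (adjusted p = 0.22, edgeR). The difference between the doses missed the looser limit without the first or the third 2 µM replicate (adjusted p = 0.0662 and 0.0828, edgeR) or the second 10 µM replicate (0.191).

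Pmaip1, which encodes NOXA, a BH3-only protein that binds MCL1, was near the limit of detection. It had 0.623, 0.496 and 0.357 CPM at 0 µM, 0.264, 0.571 and 0.119 CPM at 2 µM, and 0.244 and 0.648 CPM at 10 µM, from 2 to 10 counts in a library. All 3 groups overlapped, and no change was detectable at this depth.

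Bid encodes a BH3-only protein that caspase 8 cleaves to link death receptors to mitochondria. It had 28.8, 27.2 and 24.3 CPM at 0 µM, 31.0, 31.2 and 33.2 CPM at 2 µM, and 29.6 and 32.5 CPM at 10 µM. Every library with RHPS4 lay above every library without it, but the log2 fold changes of 0.26 at 2 µM (95% interval 1.05- to 1.37-fold, edgeR adjusted p = 0.123) and 0.22 at 10 µM (1.01- to 1.35-fold, edgeR adjusted p = 0.156) passed neither limit. With total counts only, a scaling that moved the median of all genes by 0.231 at 10 µM against 0 µM, they were 0.34 at 2 µM (edgeR adjusted p = 0.0361) and 0.44 at 10 µM (0.00702), and without the first 0 µM replicate the value at 2 µM was 0.32 (edgeR adjusted p = 0.0379). The doses differed by −0.04 (95% interval 0.839- to 1.13-fold, edgeR adjusted p = 0.822).

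Of the effectors, Bak1 fell at 10 µM and Bax did not pass either limit. Bak1 encodes BAK, which sits in the outer mitochondrial membrane of healthy cells. It had 72.6, 62.7 and 59.9 CPM at 0 µM, 78.3, 68.2 and 63.4 CPM at 2 µM, and 52.6 and 47.1 CPM at 10 µM. Both 10 µM libraries lay below all others, while the 0 µM and 2 µM libraries overlapped. The log2 fold change was −0.38 at 10 µM against 0 µM (edgeR adjusted p = 0.0468, standard error 0.113), −0.48 between the doses (edgeR adjusted p = 0.0107, standard error 0.113) and 0.11 at 2 µM (edgeR adjusted p = 0.566). Against 0 µM the looser limit was missed in 5 of the 8 fits that left out 1 library, namely without the second or the third 0 µM, the second 2 µM or either 10 µM replicate, with adjusted p up to 0.24 (edgeR). Between the doses it was missed without the second 10 µM replicate (adjusted p = 0.0719, edgeR).

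Bax, whose protein moves from the cytosol to mitochondria when it is activated, had 22.9, 23.1 and 21.3 CPM at 0 µM, 26.3, 27.1 and 22.9 CPM at 2 µM, and 24.4 and 15.9 CPM at 10 µM. The groups overlapped in all comparisons, and the 10 µM libraries differed from each other more than any other pair of Bax libraries within a group. The log2 fold changes were 0.18 at 2 µM (95% interval 0.918- to 1.39-fold), −0.14 at 10 µM (0.715- to 1.14-fold) and −0.32 between the doses (0.631- to 1.01-fold), with edgeR adjusted p of 0.488, 0.574 and 0.159. Without the first 10 µM replicate, which leaves the single library at 15.9 CPM, the difference between the doses became a DEG at −0.71 (adjusted p = 0.00879, edgeR).

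Among the anti-apoptotic genes none passed either limit at 2 µM, Bcl2l1 was lower at 10 µM than at both other doses, and Mcl1 was lower at 10 µM than at 2 µM, all at the looser limit. Bcl2l1 had 69.5, 62.3 and 62.3 CPM at 0 µM, 73.6, 72.6 and 66.2 CPM at 2 µM, and 51.8 and 54.3 CPM at 10 µM. Its 10 µM libraries lay below all others. The log2 fold change was −0.28 at 10 µM against 0 µM (edgeR adjusted p = 0.0491, standard error 0.0856), −0.41 between the doses (edgeR adjusted p = 0.00602, standard error 0.086) and 0.13 at 2 µM (edgeR adjusted p = 0.34). Between the doses it had an adjusted p under 0.01 but, at 0.750-fold, not the fold change of a DEG, and it passed the looser limit in all 8 fits that left out 1 library. Against 0 µM it passed in 2 of these 8, those without the first 0 µM or the third 2 µM replicate, with adjusted p up to 0.138 (edgeR) in the others. The gene makes BCL-XL and the short pro-apoptotic BCL-XS by splicing, which gene counts cannot separate.

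Mcl1, which encodes a short-lived protein that restrains BAK, had 240.1, 193.9 and 201 CPM at 0 µM, 230.2, 223.7 and 227.8 CPM at 2 µM, and 174.1 and 183.8 CPM at 10 µM. The 10 µM libraries lay below all others. The log2 fold change was −0.34 between the doses (edgeR adjusted p = 0.0226, standard error 0.0944), −0.24 at 10 µM against 0 µM (95% interval 0.734- to 0.977-fold, edgeR adjusted p = 0.116) and 0.10 at 2 µM (edgeR adjusted p = 0.504). The difference between the doses missed the looser limit without the first or second 2 µM replicate (adjusted p = 0.0588 and 0.0599, edgeR) or without either 10 µM replicate (0.0834 and 0.0545).

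Bcl2, the founding member, whose protein holds back BAX and BH3-only proteins, had 15.6, 14.7 and 18.2 CPM at 0 µM, 17.7, 18.2 and 18.3 CPM at 2 µM, and 14.7 and 17.2 CPM at 10 µM. The 0 µM libraries overlapped with both other groups, and the 10 µM libraries lay below the 2 µM ones. The log2 fold changes were 0.16 at 2 µM (95% interval 0.948- to 1.31-fold), −0.03 at 10 µM (0.819- to 1.18-fold) and −0.18 between the doses (0.733- to 1.06-fold), with edgeR adjusted p of 0.425, 0.904 and 0.3. A change of Bcl2 was not shown at either limit.

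Read by class, the median log2 fold change of the 4 tested BH3-only genes had opposite signs at the 2 doses, −0.55 at 2 µM and 0.37 at 10 µM against 0 µM. Of these genes, only Bmf (−0.71 and 0.59) and Bbc3 (−0.54 and 0.51, passing neither limit) changed sign. Bcl2l11 was negative at both doses (−0.57 and −0.13) and Bid positive at both (0.26 and 0.22), so the class did not reverse as a whole. The effectors had medians of 0.14 and −0.26, and the anti-apoptotic genes of 0.13 and −0.24. Between the doses the medians were 0.74 for the BH3-only genes, −0.40 for the effectors and −0.34 for the anti-apoptotic genes. These medians describe 4, 2 and 3 genes and carry no test.

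The balance between the classes was read from summed levels within each library. Per 100 anti-apoptotic CPM per kb, the BH3-only genes had 17.1, 19.5 and 18.6 in the 0 µM libraries, 14.8, 16.6 and 16.5 in the 2 µM libraries, and 24.8 and 25.5 in the 10 µM libraries. The 3 groups did not overlap, and their means were 18.4 ± 1.25 (n = 3, SD), 16.0 ± 1.03 (n = 3, SD) and 25.2 ± 0.474 (n = 2, SD). The effectors showed no such separation, with 53.2 ± 2.99, 53.8 ± 4.29 and 51.2 ± 10.3 in the same units. The higher balance at 10 µM came with more RNA of the listed BH3-only genes (16.5 ± 0.962 CPM per kb, against 14.2 ± 0.537 at 0 µM). RNA of the 3 listed anti-apoptotic genes was lower (65.7 ± 2.59, against 77.8 ± 8.15). The 0 µM libraries were uneven here, at 87.1, 71.9 and 74.4 CPM per kb. Mcl1 by itself passed neither limit at 10 µM against 0 µM (edgeR adjusted p = 0.116). The anti-apoptotic gene Bcl2l2, outside this sum and named after its values were seen, went the other way. Its 10 µM libraries lay above all others. The log2 fold change of Bcl2l2 was 0.28 against 0 µM (edgeR adjusted p = 0.0977), which passed neither limit. Against 2 µM it was 0.35 (edgeR adjusted p = 0.0301), which passed the looser limit. Mcl1 makes up most of the anti-apoptotic sum and Bid most of the BH3-only sum, so these balances weigh such genes most.

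The makeup of the RNA of the listed BH3-only genes also differed by dose. Bmf made up 11.8% ± 0.277 (n = 3, SD) of the BH3-only CPM per kb at 0 µM, 7.54% ± 0.199 (n = 3, SD) at 2 µM and 15.1% ± 0.262 (n = 2, SD) at 10 µM. Bcl2l11 made up 24.5% ± 3.15, 17.6% ± 0.819 and 19.4% ± 2.98. Bid made up 52.9% ± 2.88 at 0 µM and 67.1% ± 3.16 at 2 µM, while at 10 µM its libraries were at 52.6% and 53.2%, within the 0 µM range. A share also depends on the other genes in the sum. Bid itself had 7.535 CPM per kb at 0 µM and 8.965 at 2 µM, a change that passed neither limit (edgeR adjusted p = 0.123).

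**Figure D3:**
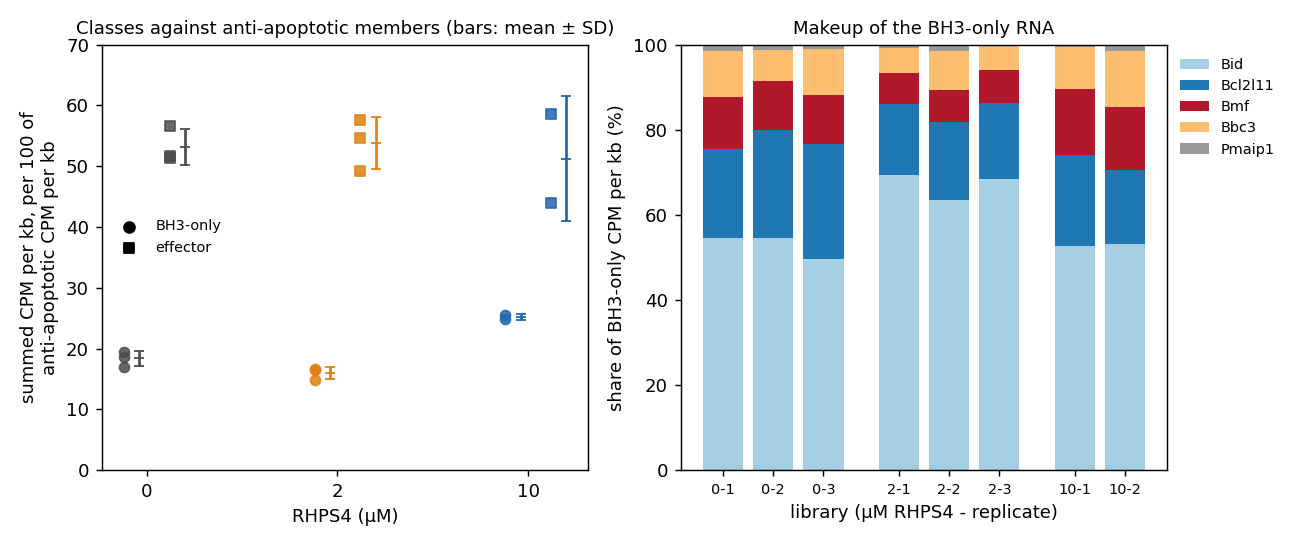
Left, the summed CPM per kb of the BH3-only (circles) and effector (squares) genes per 100 CPM per kb of the anti-apoptotic genes, for each library by RHPS4 dose in µM, with mean ± SD beside the points (n = 3, 3 and 2). Right, the share in percent of each BH3-only gene in each library (dose and replicate). BH3-only circles sit at 24.8 and 25.5 at 10 µM, above all others, and the Bmf share is between 7.32% and 7.70% at 2 µM.

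Ratios of a pro-apoptotic to an anti-apoptotic mRNA within a library do not depend on the scaling between libraries. For Bmf to Bcl2, the log2 ratio of counts (0.5 added to each) was −0.72, −0.77 and −1.10 without RHPS4. It was −1.86, −1.71 and −1.72 with 2 µM and −0.21 and −0.35 with 10 µM RHPS4. No 2 groups overlapped, with differences in means of −0.90 at 2 µM against 0 µM, 0.59 at 10 µM against 0 µM and 1.49 between the doses, against pooled SDs of 0.159, 0.179 and 0.0898. The two-sided exact permutation p was 0.1, 0.2 and 0.2, the smallest that 3 against 3 and 2 against 3 libraries allow, and 0.48 after Benjamini-Hochberg adjustment over the 12 ratio tests, so this design could not pass 0.05.

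The log2 ratio of Bcl2l11 to Bcl2l1 averaged −1.22 ± 0.227 (n = 3, SD) at 0 µM, −1.90 ± 0.191 (n = 3, SD) at 2 µM and −1.05 ± 0.185 (n = 2, SD) at 10 µM. The 2 µM libraries lay below both other groups, by 0.69 against 0 µM (exact permutation p = 0.1, adjusted 0.48) and by 0.85 against 10 µM (exact permutation p = 0.2, adjusted 0.48). The ratio of Bax to Bcl2, which is often quoted as a measure of readiness for apoptosis, differed by 0.007 at 2 µM (pooled SD 0.189), −0.17 at 10 µM (pooled SD 0.39) and −0.18 between the doses, with exact permutation p of 0.8 in each and overlapping groups. The ratio of Pmaip1 to Mcl1 overlapped between all groups too, with exact permutation p of 0.3, 1.0 and 0.4, and rests on few Pmaip1 counts.

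Other genes of the apoptosis pathway were read as lists chosen by function. Of 16 other BCL2 family genes 10 were tested, and Bik, Bcl2l10, Bcl2l14 and the near-identical copies Bcl2a1a, Bcl2a1b and Bcl2a1d had too few counts. Bnip3, whose BH3-containing protein is better known for mitophagy in low oxygen, was a DEG at both doses against the same 0 µM libraries, with 111.1 ± 11.3 CPM (n = 3, SD) at 0 µM, 63.7 ± 2.35 (n = 3, SD) at 2 µM and 59.1 ± 7.17 (n = 2, SD) at 10 µM. Its log2 fold changes were −0.80 (adjusted p = 0.00163, edgeR) and −0.91 (adjusted p = 0.000297, edgeR). The first was no longer a DEG without the third 0 µM or any 2 µM replicate (adjusted p up to 0.0154, edgeR). Bok, an effector relative of Bax and Bak1, was lower at 10 µM than at 2 µM, with a log2 fold change of −0.73 (adjusted p = 0.00271, edgeR), with 5.74 ± 0.177 CPM (n = 2, SD) against 9.49 ± 0.658 (n = 3, SD). At 2 µM against 0 µM Bok rose by 0.60 on the log2 scale at the looser limit (adjusted p = 0.0182, edgeR). Its difference between the doses was no longer a DEG without the second 2 µM or either 10 µM replicate (adjusted p up to 0.0191, edgeR). In this list 3 of 10 passed the looser limit at 2 µM against 0 µM (4.16% of all tested genes did), 2 of 10 at 10 µM against 0 µM (13.9% of all) and 2 of 10 between the doses (23.4% of all), and the last share is below that of all genes.

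Of the 7 apoptosome and caspase genes reported here, 2 passed the looser limit, each in 1 comparison, where 4.16% (2 µM against 0 µM) and 23.4% (between the doses) of all tested genes did. They are named after their values were seen. Casp9, which encodes the initiator caspase of the apoptosome, was lower at 2 µM than at 0 µM with a log2 fold change of −0.34 (adjusted p = 0.0397, edgeR). Cycs, which encodes cytochrome c, was lower at 10 µM than at 2 µM with a log2 fold change of −0.45 (adjusted p = 0.0435, edgeR). The list medians were −0.13 at 2 µM against 0 µM, −0.12 at 10 µM against 0 µM and 0.04 between the doses.

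Among 8 inhibitor of apoptosis genes and their antagonists, Xaf1, an interferon-responsive gene whose protein counters XIAP, was a DEG. It had 18.7 ± 0.176 CPM (n = 3, SD) at 0 µM, 13.6 ± 1.86 (n = 3, SD) at 2 µM and 40.4 ± 0.462 (n = 2, SD) at 10 µM. At the looser limit, Xaf1 at 2 µM fell by 0.46 on the log2 scale (adjusted p = 0.0371, edgeR), and it rose by 1.12 at 10 µM against 0 µM (adjusted p = 6.1e-05, edgeR) and by 1.57 between the doses (adjusted p = 5.45e-06, edgeR). Like Bmf it was thus lower at 2 µM and higher at 10 µM than without RHPS4. Of the 8, 1, 2 and 4 passed the looser limit in the 3 comparisons (4.16%, 13.9% and 23.4% of all tested genes). Of 7 death receptor pathway genes, 1 passed the looser limit at 10 µM against 0 µM and 1 between the doses (edgeR), shares near or below the 13.9% and 23.4% of all tested genes.

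Of 8 genes for transcription factors known to act on BH3-only genes, 7 were tested (not Trp73). Ddit3, which encodes the stress factor CHOP, was a DEG at 10 µM, with 21.4 ± 1.05 CPM (n = 3, SD) at 0 µM, 16.4 ± 3.05 (n = 3, SD) at 2 µM and 53.4 ± 5.77 (n = 2, SD) at 10 µM. Its log2 fold changes were 1.32 against 0 µM (adjusted p = 8.49e-05, edgeR) and 1.72 against 2 µM (adjusted p = 1.2e-05, edgeR), and both, like those of Xaf1, stayed DEGs in all 8 fits that left out 1 library. At the looser limit 1, 4 and 3 of the 7 passed in the 3 comparisons (4.16%, 13.9% and 23.4% of all tested genes). Chosen after their values were seen, 3 of these are given. Foxo3, a forkhead factor, had 31.4 ± 1.09 CPM (n = 3, SD) at 0 µM, 21.2 ± 2.72 (n = 3, SD) at 2 µM and 21.0 ± 0.511 (n = 2, SD) at 10 µM, and passed the looser limit at both doses against 0 µM (adjusted p = 0.0115 and 0.00608, edgeR). Trp53, which encodes p53, had 91.1 ± 7.12, 90.6 ± 3.93 and 61.5 ± 9.09 CPM at these doses and fell at 10 µM by 0.56 on the log2 scale (adjusted p = 0.00522, edgeR). Atf4, a partner of CHOP in the response to stress, had 302.6 ± 34.8, 345.9 ± 15.2 and 444.5 ± 7.64 CPM and rose at 10 µM by 0.56 (adjusted p = 0.00326, edgeR).

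The last list held 10 genes for the stability and location of the members' proteins. Dynll1, whose light chain holds BIM at microtubules, had 182.1 ± 20.9 CPM (n = 3, SD) at 0 µM, 212 ± 9.75 (n = 3, SD) at 2 µM and 134.9 ± 8.70 (n = 2, SD) at 10 µM. It was a DEG between the doses at −0.65 (adjusted p = 0.00114, edgeR), no longer so without the first 10 µM replicate (adjusted p = 0.0112, edgeR), and passed the looser limit at 10 µM against 0 µM at −0.43 (adjusted p = 0.0156, edgeR). At the looser limit 2 of the 10 passed at 10 µM against 0 µM (13.9% of all tested genes) and 1 between the doses (23.4% of all), all lower.

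**Figure D4:**
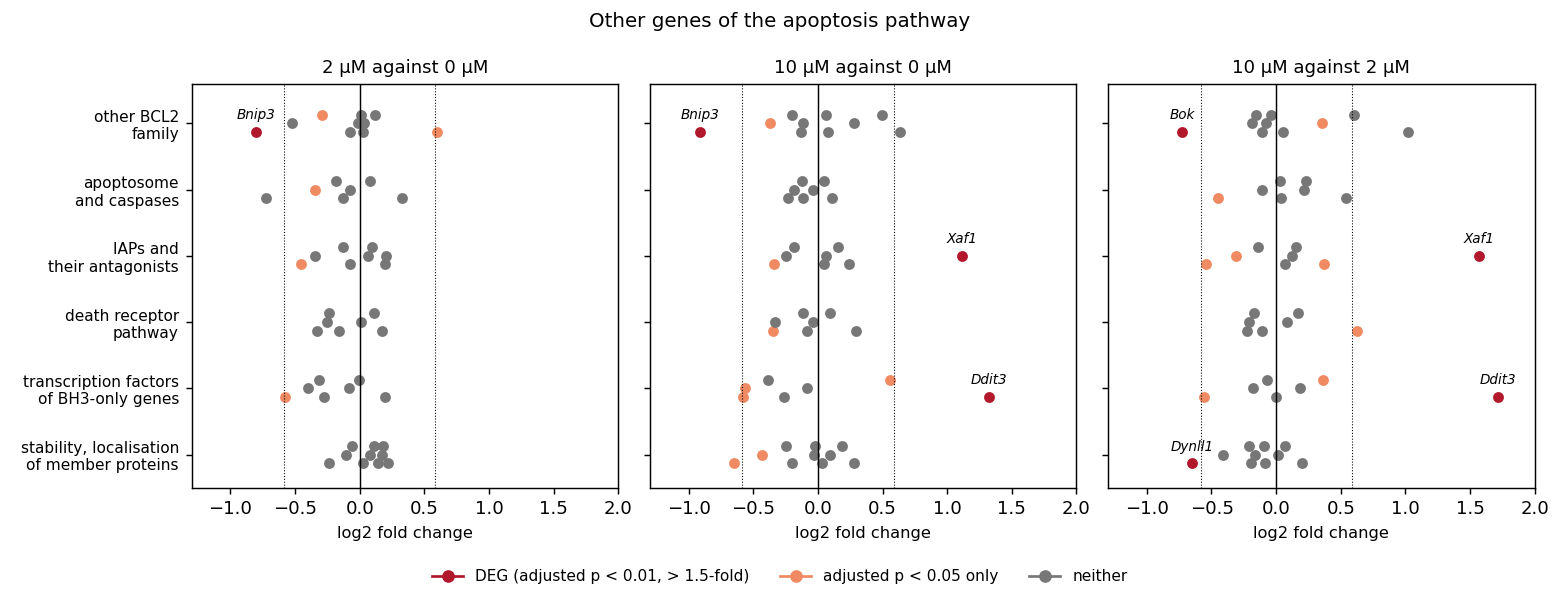
Log2 fold changes of the tested genes of 6 other apoptosis lists in the 3 comparisons, each point a gene, coloured by the edgeR result and named where it is a DEG, with dotted lines at a 1.5-fold change. Ddit3 and Xaf1 stand to the right at 10 µM, at 1.32 and 1.12 against 0 µM and at 1.72 and 1.57 against 2 µM, and Bnip3 to the left at both doses against 0 µM.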

How the data were processed

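RNA-Seq measured RNA of MEF cells at 3 RHPS4 doses. Per the labels, the authors depleted nuclear rRNA, made stranded paired-end libraries, trimmed the reads, aligned them to mm10 with STAR 2.5.2a and had featureCounts count uniquely mapped fragments. The authors deposited these whole-number counts per gene without normalization, and their strand setting and annotation are not given in the sources used here.

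The deposited counts of all 8 libraries were fitted in R 4.3.3 with edgeR 4.0.16 (TMM, filterByExpr, glmQLFit and glmQLFTest, dose as factor, Benjamini-Hochberg adjustment over 14296 genes), checked first on simulated counts. DEGs passed a fold change of 1.5 and an adjusted p of 0.01. Standard errors are the log2 fold change divided by the square root of F. Exonic lengths and positions came from GENCODE, promoters from RefSeq, both on GRCm38. Figures and within-library tests used Python 3.11.15 with scipy 1.17.1. Totals of 10455965 to 26688121 counts set the precision.

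Named were all members, DEGs of the other lists, and the 3 genes that correlated best with each member that was a DEG, while further genes are said to be chosen afterwards. The members and lists were chosen with earlier results of these data known. Alternatives were other scalings and filters, DESeq2 1.42.0, other thresholds, only the groups compared, a replicate block and leaving out each library. The alternatives for the DEGs of the other lists were added after the data were seen. Left out were the other experiments of the study and protein sequences, and 1 gene of the lists is not reported here.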

Additional observations from a re-analysis of the deposited data

How the results depend on the processing

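Of 486 alternative values for single members, 445 kept their direction and their side of the DEG limits, 22 lost and 11 gained a call, and 8 changed sign. All 22 losses were those of Bmf against 0 µM, the only call there, in 10 of 18 alternatives at 2 µM and 12 of 18 at 10 µM. Among the 18, no minimum fold change and an adjusted p under 0.05 reuse the main fit with looser limits. They could not change a value or end a call, so they add no support to these counts. The number of DEGs among the members, 1 in each comparison, was 0 at 2 µM with total counts only, with only the 2 groups compared and with the replicate block, 2 with an adjusted p under 0.05, and 0 to 2 when a library was left out. At 10 µM against 0 µM it was 0 with RLE size factors, no filter on low counts, DESeq2, only the 2 groups compared and the replicate block, 3 with an adjusted p under 0.05, and 0 to 1 when a library was left out. Bmf had a log2 fold change of 0.52 to 0.80 over these alternatives. Between the doses it was 2 with no minimum fold change, 6 with an adjusted p under 0.05, and 1 to 2 when a library was left out, and Bmf stayed a DEG in all 18.

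Values that changed sign were small. With total counts only, which moved the median of all genes to 0.231 at 10 µM against 0 µM and 0.162 between the doses, they were Bcl2l11 at 0.086, Bax at 0.069 and Bcl2 at 0.19 for the first and Bid at 0.098 for the second, all below that shift. With this scaling Bak1, Bcl2l1 and Mcl1 were at −0.16, −0.066 and −0.021 at 10 µM against 0 µM (adjusted p = 0.289, 0.58 and 0.869, edgeR), and Mcl1 at −0.21 between the doses (0.0982). With only the 2 groups compared, Bak1 and Bcl2l1 at 10 µM against 0 µM also missed an adjusted p of 0.05 (0.0657 and 0.0891). At 10 µM against 0 µM Bax ran from −0.53 to 0.097 (without the first and the second 10 µM replicate) and Bcl2 from −0.17 (without the second 10 µM replicate) to 0.083 (without the third 0 µM replicate) when a library was left out, with 0.052 without the first 10 µM replicate, and Bcl2 was at 0.037 with the replicate block. When libraries were left out, the difference in the Bax to Bcl2 log2 ratio ran from −0.59 to 0.25 at 10 µM against 0 µM and from −0.60 to 0.24 between the doses, and that of Pmaip1 to Mcl1 from −0.62 to 0.62 at 10 µM against 0 µM. The cause was not tested. Where 1 library of 10 µM was left out, the fit takes the remaining one to vary like the other groups.

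Same-numbered libraries at 0 and 2 µM had correlated deviations of 0.199, 0.0845 and 0.161, not all above 0.1. Each was the highest among that library's values with the other of these 2 doses. Those at 10 µM had −0.145 to −0.0212, but deviations of only 2 libraries mirror each other. The first 0 µM library, for example, had −0.145 and 0.145 with them. The main fit did not take the numbers as pairs, and these values do not settle whether they are pairs. With the replicate block Bmf had an adjusted p of 0.0255 at 2 µM and 0.0266 at 10 µM (edgeR). Over all genes, 71 DEGs at 2 µM became 109 with DESeq2, 107 with no minimum fold change, 595 with an adjusted p under 0.05 and 6 to 144 when a library was left out. The 442 at 10 µM became 914 with total counts only, 747 with no minimum fold change, 1991 with an adjusted p under 0.05 and 235 to 633 with a library left out, and the 788 between the doses became 1539, 3346 and 444 to 884 with the last 3 of these. Depth limits Pmaip1 and Bbc3 most, and 2 libraries at 10 µM limit every value there.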
